A study of Mus musculus with 16 samples.

Results

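The genes described here are 10 inflammatory cytokines and feedback genes of the NF-kB pathway: Il1a, Il1b, Il6, Il10, Il18, Il1rn, Tnf, Tnfaip3, Nfkbia and Nfkbiz. They were taken by symbol from the 47729 genes of each count table, where all 10 were found, and their level is given as CPM, the count scaled to the sum of reads on genes. RNA was sequenced from ECs (endothelial cells), Kupffer cells, HSCs (hepatic stellate cells) and hepatocytes of adult male mice in 16 libraries, with 2 libraries for each cell type and genotype label. Mice labelled KO carried the tamoxifen-inducible Cdh5-CreERT2 driver, in which the endothelial Cdh5 promoter controls Cre, together with a floxed exon 7 of Zeb2 and an R26R CAG-boosted eGFP reporter. WT mice were littermates without Cre, and both received 2 mg tamoxifen per day on 5 days in a row. The 4 cell types were isolated at the same time by enzymatic digestion, hepatocytes by centrifugation and the others by cell sorting (vitamin A fluorescence for HSCs, F4/80 for Kupffer cells and Pan-endo for ECs), and which libraries came from the same liver was not given in the sources used here.

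NF-kB is a family of dimeric transcription factors that inhibitory IkB proteins hold in the cytoplasm. Signals from the receptors for IL-1 and TNF activate the IKK kinases, IkB is degraded, and the freed dimers switch on cytokines as well as genes that feed back on the response. Of these, Nfkbia encodes the inhibitor IkB-alpha, Tnfaip3 encodes A20, which edits ubiquitin chains on signalling proteins, and Nfkbiz encodes the nuclear IkB-zeta, an atypical member best known as a coactivator of later genes such as Il6. In the liver, resident macrophages, the Kupffer cells, are the best known source of IL-1, TNF and IL-6.

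The promoters of these genes are shown because the NF-kB dimer reads a short sequence, the kB consensus, close to many of its targets. RefSeq promoter windows (250 bases before the transcript start, GRCm38.p6) were at hand for 8 of the 10 genes, and Il10 and Nfkbiz had none. The 8 genes have 11 windows, and 3 windows hold a match to the kB consensus (10 bases, both strands, the only motif searched), namely those of Il6, Tnfaip3 and Nfkbia. Of all 32851 windows in the table, 7.25% hold one. The 3 windows are written in the direction of transcription, with the match in capitals, and they cover chr5:30012864-30013113 (plus strand), chr10:19015411-19015660 (minus strand) and chr12:55492648-55492897 (minus strand), in this order.
Il6: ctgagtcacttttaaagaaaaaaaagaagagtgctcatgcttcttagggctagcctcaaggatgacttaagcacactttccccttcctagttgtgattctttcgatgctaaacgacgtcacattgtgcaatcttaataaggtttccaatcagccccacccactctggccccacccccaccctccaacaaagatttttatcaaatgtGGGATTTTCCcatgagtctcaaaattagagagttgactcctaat
Tnfaip3: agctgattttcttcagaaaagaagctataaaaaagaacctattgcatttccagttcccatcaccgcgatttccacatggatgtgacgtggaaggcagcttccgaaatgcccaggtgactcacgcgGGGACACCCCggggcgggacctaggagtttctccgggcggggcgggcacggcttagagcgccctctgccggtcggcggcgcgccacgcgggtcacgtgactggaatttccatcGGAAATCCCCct
Nfkbia: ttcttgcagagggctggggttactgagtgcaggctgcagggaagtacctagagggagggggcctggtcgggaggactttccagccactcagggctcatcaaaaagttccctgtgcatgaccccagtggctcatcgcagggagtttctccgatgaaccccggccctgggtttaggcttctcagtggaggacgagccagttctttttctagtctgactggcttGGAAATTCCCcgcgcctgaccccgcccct
The match of Il6 lies 44 to 35 bases before the start and that of Nfkbia 29 to 20 bases before it. Tnfaip3 has 1 match at 125 to 116 bases, read on both strands, and another at 12 to 3 bases. A match is a description of these letters, and no window of Il1a, Il1b, Il18, Il1rn or Tnf held one.

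The libraries held 12872706 to 15690506 gene counts each, so that 3 counts, taken as the smallest level this depth can show, are worth 0.191 to 0.233 CPM (counting error only). Zeb2, the targeted gene, had 106 and 106 CPM in the WT EC libraries and 199 and 130.1 CPM in those labelled KO. The count was thus not lower under the KO label. It covers all exons of the gene, while only exon 7 was floxed, and whether this bears on the count was not tested. The paper reports efficient deletion of Zeb2 in ECs at the mRNA level. Groups are called by their labels throughout. The median marker percentage of each of the 4 cell types was highest in its own libraries, but single endothelial markers were not limited to ECs. Plvap had 6825 to 9616 CPM in the 4 HSC libraries against 222 to 471 CPM in ECs, and Cdh5, whose promoter drives the Cre, had 147 to 172 CPM in Kupffer cells against 165 to 234 CPM in ECs. Hepatocyte markers had a median of 11.4% and 23.0% of their hepatocyte level in the WT EC libraries against 2.00% and 2.65% under the KO label. In HSCs they had 3.19% to 7.34% in WT against 0.502% to 1.12%. Kupffer cell markers had 0.933% to 2.17% of their Kupffer level in ECs, 0.917% to 5.17% in HSCs and 0.269% to 0.781% in hepatocytes. In Kupffer WT library 31 the macrophage receptor gene Marco had 9163 CPM, against 368 to 670.0 CPM in the other 3 Kupffer libraries. In bulk RNA, fewer cells of a type and less RNA per cell cannot be told apart. Values of a group are given in the order of the library numbers in the labels. For ECs these are 34 and 38 (WT) against 6 and 46 (KO label), for Kupffer cells 31 and 39 against 27 and 43, for HSCs 32 and 40 against 8 and 20, and for hepatocytes 29 and 33 against 25 and 41.

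**Figure D1:**
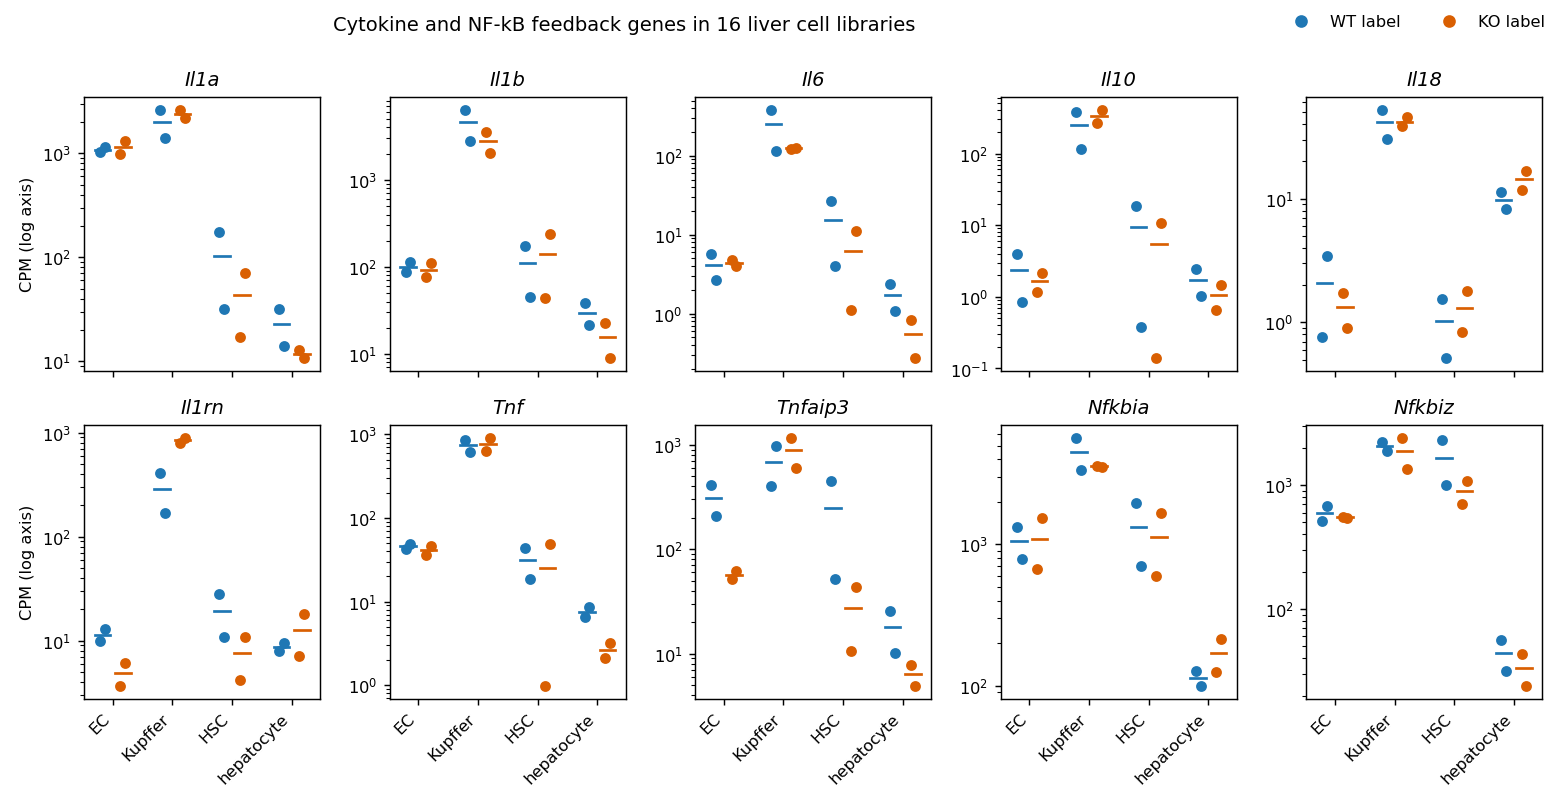
Level of the 10 genes in the 16 libraries, in CPM on a log axis (a separate range for each gene). Points are libraries, blue for the WT label and orange for the KO label, and bars are means of 2 libraries. Kupffer cells have 1399 to 2627 CPM of Il1a and ECs 988 to 1313 CPM, Il1b is highest in the 4 Kupffer libraries, and hepatocytes lie above ECs and HSCs for Il18.

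Il1a (ENSMUSG00000027399, chr2:129299610-129309972, minus strand; all gene positions are in GRCm38) encodes IL-1 alpha, a cytokine that acts as an alarm signal of damaged cells. In ECs it had 1020.2 and 1136 CPM in WT and 988 and 1313 CPM under the KO label, against 2627 and 1399 CPM in WT and 2606 and 2158 CPM under the KO label in Kupffer cells. The 4 EC libraries all lay below the lowest Kupffer library, and the WT groups differed by -1.31 on the log2 scale (SE 0.77, adjusted p = 0.288), which did not pass the threshold of an adjusted p-value under 0.05 (SE is the standard error of the log2 difference). HSCs had 176 and 31.8 CPM in WT against 17.0 and 70.3 CPM. Hepatocytes had 31.5 and 13.9 CPM in WT against 12.8 and 10.6 CPM. ECs were higher than hepatocytes by 4.24 on the log2 scale (SE 0.87, adjusted p = 0.00582), while their difference from HSCs of 3.08 had an adjusted p of 0.0531. Of the exons of Il1a, 222 bases are shared with exons of Gm14023 on the opposite strand. The strand setting of the counting was not given in the sources used here, so that reads of the 2 genes cannot be told apart there.

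Il1b (ENSMUSG00000027398, chr2:129364570-129371139, minus strand), which encodes the precursor of IL-1 beta, was highest in Kupffer cells. Kupffer libraries had 6419 and 2815 CPM in WT and 3574 and 2015 CPM under the KO label. In ECs it had 87.5 and 114 CPM in WT and 75.9 and 111 CPM under the KO label. Every Kupffer library stood above every other library, and ECs were lower than Kupffer cells (log2 difference -5.95, SE 0.86, adjusted p = 0.00292). HSCs had 175 and 44.6 CPM in WT and 43.6 and 239 CPM under the KO label, and hepatocytes 38.4 and 21.3 against 22.6 and 8.90 CPM. ECs, HSCs and hepatocytes did not differ from each other past the threshold. Il1bos, an antisense gene, shares 25 exonic bases with Il1b.

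Il1rn (ENSMUSG00000026981, chr2:24336853-24351494, plus strand) encodes the IL-1 receptor antagonist, a secreted protein that blocks the receptor of both IL-1 forms. Kupffer cells had 407 and 167 CPM in WT and 786 and 894 CPM under the KO label. ECs had 9.91 and 12.9 CPM in WT against 3.62 and 6.05 CPM. Kupffer cells were higher than each of the other 3 cell types in WT, by 4.03 to 5.08 on the log2 scale, and those 3 did not differ from each other past the threshold. HSCs had 27.7 and 10.8 CPM in WT against 4.15 and 10.9 CPM, and hepatocytes 7.90 and 9.55 against 7.09 and 18.1 CPM.

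Il18 (ENSMUSG00000039217, chr9:50554827-50581840, plus strand) encodes a cytokine of the IL-1 family that is stored as an inactive precursor. Kupffer cells had 52.5 and 30.6 CPM in WT and 38.6 and 45.4 CPM under the KO label. Hepatocytes came second, with 11.3 and 8.25 CPM in WT and 11.9 and 16.8 CPM under the KO label. They lay above all 8 EC and HSC libraries. ECs had 0.768 and 3.42 CPM in WT against 1.74 and 0.904 CPM, and HSCs 1.54 and 0.512 against 0.830 and 1.80 CPM. Hepatocytes were higher than ECs (log2 fold change of ECs against hepatocytes -3.59, SE 0.78, adjusted p = 0.00755) and than HSCs (-4.30, SE 0.81, adjusted p = 0.00428), and they did not differ from Kupffer cells past the threshold (1.15, SE 0.69, adjusted p = 0.219). That comparison depends on the scaling and the filter: Il18 was called higher in Kupffer cells with library totals (log2 fold change 2.08, adjusted p = 0.0480) and without the filter on low counts (1.34, adjusted p = 0.0355), and the CPM of both groups did not overlap.

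Tnf (ENSMUSG00000024401, chr17:35199381-35202007, minus strand) encodes the ligand after which the TNF family is named. Kupffer cells had 864 and 617 CPM in WT and 632 and 917 CPM under the KO label. ECs had 42.4 and 49.1 CPM in WT and 35.9 and 46.3 CPM under the KO label. The 4 EC libraries lay within a narrow range, and all Kupffer libraries were above them (log2 difference -4.42 in WT for ECs against Kupffer cells, SE 0.53, adjusted p = 0.00148). Over the alternative settings, apart from fits with a library left out, the adjusted p of this difference reached 0.0593. The call was thus not kept in all of them. HSCs had 43.7 and 18.6 CPM in WT and 0.968 and 49.1 CPM under the KO label, so that HSC library 8 stood apart from the other 3. Hepatocytes had 6.56 and 8.66 CPM in WT against 2.13 and 3.17 CPM.

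Il6 (ENSMUSG00000025746, chr5:30013114-30019981, plus strand), whose product drives the acute phase response of hepatocytes, had 385 and 116 CPM in WT Kupffer cells and 122 and 126 CPM under the KO label. Il10 (ENSMUSG00000016529, chr1:131019845-131024974, plus strand), whose product dampens macrophage activation, had 375 and 117 CPM in WT Kupffer cells and 262 and 409.9 CPM under the KO label. Outside Kupffer cells both were near the floor of the depth in some libraries. In ECs Il6 had 5.65 and 2.64 CPM in WT against 4.74 and 3.96 CPM, and Il10 had 3.91 and 0.855 against 1.18 and 2.15 CPM. HSC libraries 32 and 20 had more of both than the other 2 HSC libraries. Il6 had 26.8 and 4.03 CPM there in WT and 1.11 and 11.2 CPM under the KO label, and Il10 had 18.3 and 0.384 CPM in WT and 0.138 and 10.7 CPM under the KO label. Hepatocytes had at most 2.36 CPM of Il6 and 2.42 CPM of Il10. Kupffer cells were higher than ECs and hepatocytes in both genes past the threshold, and higher than HSCs for Il6 (log2 fold change 4.16, SE 1.02, adjusted p = 0.0236) but not for Il10 (4.86, SE 1.49, adjusted p = 0.0533). With a library left out, the adjusted p reached 0.112 for Il6 against HSCs (lost without Kupffer library 31 or HSC library 40), 0.0578 for Il6 against ECs (without EC library 38), 0.127 for Il10 against ECs (without EC library 34 or 38 or Kupffer library 31) and 0.0992 for Il10 against hepatocytes (without Kupffer library 31 or hepatocyte library 29 or 33).

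The 3 feedback genes were measured in all 16 libraries. Nfkbia (ENSMUSG00000021025, chr12:55489410-55492647, minus strand) had 5693 and 3352 CPM in WT Kupffer cells and 3575 and 3537 CPM under the KO label. In ECs it had 1329 and 788 CPM in WT and 672 and 1526 CPM under the KO label. HSCs overlapped ECs, with 1956 and 708 CPM in WT and 593 and 1662 CPM under the KO label, and hepatocytes were below all of them with 98.9 to 215 CPM. WT ECs were lower than Kupffer cells (log2 difference -2.49, SE 0.61, adjusted p = 0.0275) and higher than hepatocytes by 1.90 on the log2 scale (SE 0.60, adjusted p = 0.0345), and did not differ from HSCs past the threshold (adjusted p = 0.552). The difference from Kupffer cells was not called without EC library 34 or 38 or Kupffer library 31 (adjusted p up to 0.136), nor that from hepatocytes without EC library 34 or hepatocyte library 29 or 33 (up to 0.158), and neither was called in the KO-labelled libraries (0.0681 and 0.0950).

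Nfkbiz (ENSMUSG00000035356, chr16:55811375-55838899, minus strand) had overlapping levels in HSCs and Kupffer cells. Kupffer cells had 2226 and 1889 CPM in WT and 2424 and 1357 CPM under the KO label. HSCs had 2326 and 1006 CPM in WT and 709 and 1086 CPM under the KO label. Their WT difference was 0.40 on the log2 scale (SE 0.48, adjusted p = 0.596). ECs had 515 and 673 CPM in WT and 558 and 546 CPM under the KO label, and hepatocytes 56.5 and 31.5 against 43.3 and 23.7 CPM. All 3 nonparenchymal cell types were higher than hepatocytes past the threshold, by 2.42 (ECs), 4.60 (Kupffer cells) and 4.197 (HSCs) on the log2 scale. ECs were lower than Kupffer cells (log2 difference -2.18, SE 0.50, adjusted p = 0.0208), a call lost without EC library 34 or 38 or Kupffer library 31 (up to 0.0954), and their call against hepatocytes was lost without hepatocyte library 33 (0.0547).

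Tnfaip3 (ENSMUSG00000019850, chr10:19000910-19015657, minus strand) had 402 and 968 CPM in WT Kupffer cells and 1172 and 599.7 CPM under the KO label. In ECs it had 408 and 209 CPM in WT and 51.3 and 61.9 CPM under the KO label. HSCs had 449.7 and 51.8 CPM in WT and 10.5 and 43.6 CPM under the KO label. Hepatocytes, with 25.7 and 10.1 CPM in WT and 7.80 and 4.85 CPM under the KO label, were below every EC library. By WT means the order was Kupffer cells (685 CPM), ECs (308 CPM), HSCs (251 CPM) and hepatocytes (17.9 CPM), but the WT libraries of the first 3 overlapped, and only the differences of Kupffer cells (4.26, SE 1.03, adjusted p = 0.0127) and ECs (2.80, SE 0.97, adjusted p = 0.0477) from hepatocytes passed. The call for ECs was lost in 6 of the 8 fits that left out 1 library.

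Counted over the 6 comparisons of WT cell types, 8 of the 10 genes were lower in ECs than in Kupffer cells, all but Il1a and Tnfaip3, where 17.3% of all 15979 genes tested were called in either direction and 8.05% lower. Kupffer cells were higher than HSCs in 6 (background 21.2%, and 9.47% higher) and than hepatocytes in 9 (background 40.6%, and 20.5% higher). Between ECs and HSCs 0 of 10 were called by edgeR (background 10.2%), with 2 at an unadjusted p under 0.05 (background 26.6%). DESeq2 called 2, and its share over all genes is not given here. ECs were higher than hepatocytes in 4 and lower in 1 (background 23.2% and 20.4%, together 43.6%), and HSCs were higher in 2 and lower in 1 (background 22.9% and 18.9%, together 41.8%). The median log2 fold change of the 10 genes between ECs and Kupffer cells was -4.58, beside 0.17 over all genes tested. Scaling bears on the comparisons with hepatocytes: the median of all genes between ECs and hepatocytes was 0.29 with TMM factors and 1.62 with library totals alone. The count between ECs and Kupffer cells was lower without WT EC library 34 or 38 or Kupffer library 31. That between ECs and hepatocytes was lower without EC library 34 or hepatocyte library 29 or 33. Each of these fits leaves 1 library in a group, and the share of all genes called in them is not given here.

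Because Kupffer cells had so much of these RNAs, the other libraries were set beside their own Kupffer marker level. Each gene was written as a percentage of its mean in WT Kupffer cells, and the median of 10 Kupffer markers, among them the lectin gene Clec4f, as a percentage of theirs. In HSCs Il1b had 0.943% to 5.18%, that is, 0.891 to 1.05 times the marker percentage of the same library in all 4 libraries. In hepatocytes the same ratio was 0.717 to 1.25, and in ECs 0.822 to 2.64. By contrast Il1a had 49.1% to 65.2% of its Kupffer level in ECs, 24.5 to 60.5 times the markers, while in HSCs it was 0.675 to 2.07 times. Il18 in hepatocytes was 35.0 to 150.3 times the marker percentage. Nfkbia was 7.42 to 19.2 times the markers in ECs and 7.10 to 17.1 times in HSCs, and Nfkbiz 12.2 to 35.1 and 10.2 to 53.3 times. Tnf in ECs was between, at 2.42 to 7.11 times. Il6 and Il10 in ECs had 0.728 to 1.47 and 0.240 to 1.04 times the marker percentage. Whether RNA of Kupffer cells makes up the Il1b, Il6 and Il10 counts of the other libraries was not tested.

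**Figure D2:**
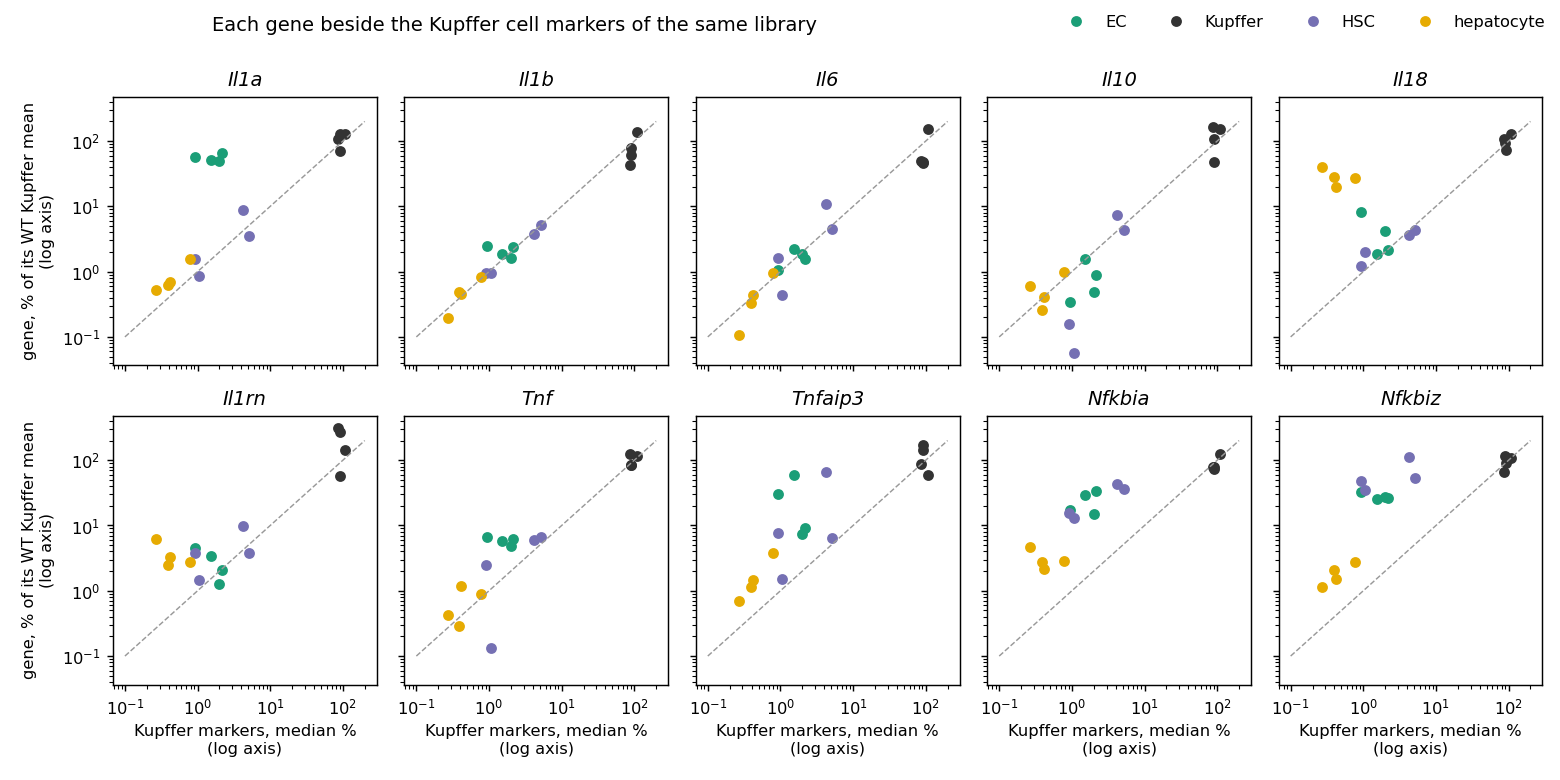
Each of the 10 genes as a percentage of its mean in WT Kupffer cells (vertical, log axis) against the median percentage of 10 Kupffer cell markers in the same library (horizontal, log axis), for 16 libraries coloured by cell type. The dashed line marks equal percentages. Il1b lies along the line in HSCs and hepatocytes, and Il1a in ECs, Il18 in hepatocytes and Nfkbia and Nfkbiz in ECs and HSCs lie above it.

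The HSC libraries differed among themselves in the same way under both labels. WT library 32 had 4.22% and KO-labelled library 20 had 5.17% of the Kupffer marker level, against 0.917% in library 40 and 1.06% in library 8. All 10 genes were higher in library 32 than in library 40, by 2.31 to 47.5 times, and all 10 were higher in library 20 than in library 8, by at least 1.53 times. Library 8 had 0.138 CPM of Il10, under the level of 3 counts, so that no upper end is given. The 2 labels each hold 1 library of either kind, and the part of this difference in the spread of HSC values was not tested.

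The balance between genes was compared within libraries, per kilobase of exon. The ratio of Il1a to Il1b was 11.3 and 9.66 in WT ECs and 12.6 and 11.4 under the KO label, so that Il1a was the main IL-1 transcript of ECs. In Kupffer cells it was 0.395 and 0.480 in WT against 0.705 and 1.03, and in the HSC and hepatocyte libraries it lay between 0.284 and 1.16. The antagonist gene Il1rn stood at 1.56% and 1.38% of the sum of Il1a and Il1b in WT Kupffer cells and at 4.44% and 7.52% under the KO label. In ECs the same percentage was 0.318% and 0.367% in WT against 0.121% and 0.151%. The KO-labelled libraries were thus above WT in Kupffer cells and below WT in ECs. Tnfaip3 over Nfkbia was 0.0684 and 0.0590 in WT ECs against 0.0170 and 0.00903. These ratios are descriptions and were not tested.

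**Figure D3:**
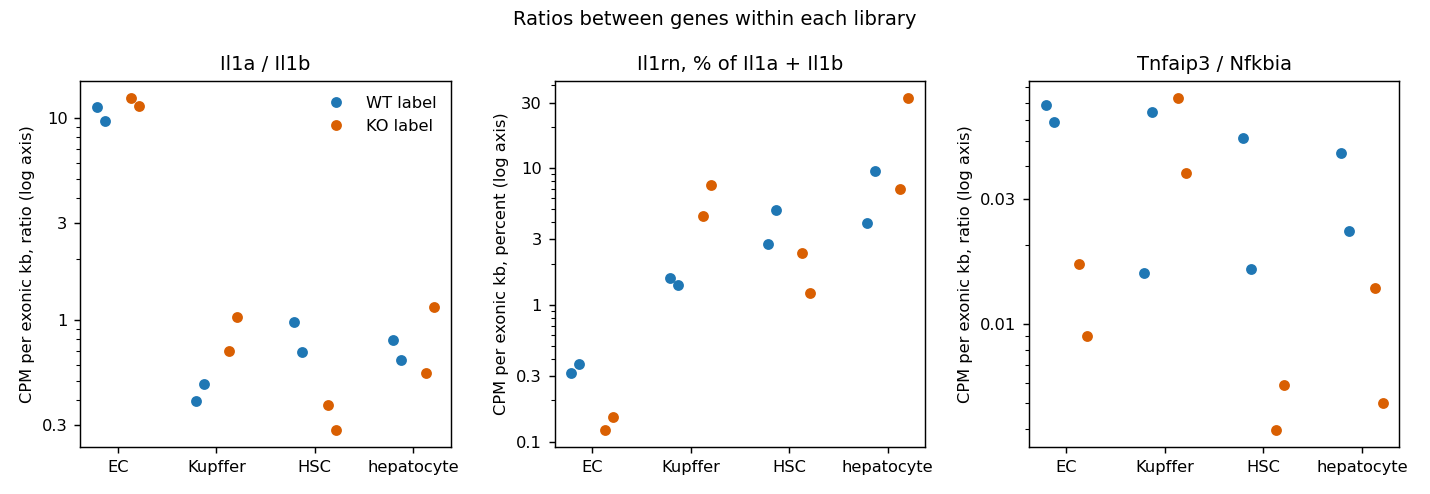
Ratios between genes of the same library, from CPM per kilobase of exon, on log axes, for Il1a over Il1b (left), Il1rn as a percentage of Il1a plus Il1b (middle) and Tnfaip3 over Nfkbia (right). Points are libraries, blue for the WT label and orange for the KO label. The 4 EC libraries have 9.66 to 12.6 for Il1a over Il1b, and no other library is above 1.16.

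The KO-labelled libraries were compared with the WT libraries within each cell type, to see whether the cytokine and feedback genes move with the endothelial genotype. In ECs 1 of the 10 genes was called, where 2.08% of the 14631 genes tested were called, 1.97% as lower. This was Tnfaip3, which was lower under the KO label by a log2 fold change of -2.45 (SE 0.38, adjusted p = 0.0366). Both KO-labelled libraries (51.3 and 61.9 CPM) lay below both WT libraries (408 and 209 CPM). The call was lost without KO-labelled library 6 (adjusted p = 0.115) or 46 (0.0855), with hepatocyte-enriched genes left out (0.152) and with all 16 libraries in one fit (0.3195), and the log2 fold change stayed between -2.87 and -1.84 in all alternatives. Markers of other cells differed between the same EC libraries. All 10 hepatocyte markers were lower under the KO label past the threshold, with the levels given above, and hepatocyte libraries had 4.85 to 25.7 CPM of Tnfaip3. Stellate cell markers were at 1.30% to 1.88% of their HSC level in WT against 0.508% to 0.779% (9 of 9 tested lower, 1 past the threshold), and HSC library 32 had 449.7 CPM of Tnfaip3. The 10 B cell markers summed to 287 to 817 CPM in WT against 174 to 185 CPM, and the 10 T and NK cell markers to 89.5 to 158 CPM against 34.9 to 44.6 CPM (10 of 10 lower in each list, 0 past the threshold, 8 and 7 at an unadjusted p under 0.05). Kupffer cell markers were at 0.933% to 1.53% in WT against 2.00% to 2.17% (10 of 10 higher, 0 past the threshold, 5 at an unadjusted p under 0.05). The part of RNA from these cells in the Tnfaip3 count was not tested.

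Il1rn in ECs had a log2 fold change of -1.22 (SE 0.48), with no overlap between labels, an unadjusted p of 0.0425 and an adjusted p of 0.313. With Tnfaip3 it was 1 of 2 genes at an unadjusted p under 0.05 (15% of all genes tested). In CPM with TMM factors, it and Tnfaip3 were the 2 genes of 10 without overlap in ECs, where 48.5% of all genes tested had none. The other 8 genes had log2 fold changes between -0.66 (Il18) and 0.10 (Il1a), with an SE of 0.28 for Il1a, 0.28 for Il1b, 0.26 for Tnf, 0.24 for Nfkbiz, 0.48 for Nfkbia, 0.64 for Il6, 0.995 for Il10 and 1.02 for Il18. Nfkbia had a log2 fold change of 0.07, which ran from -0.71 to 0.59 with each library left out. Over the 10 genes the median was -0.12, beside -0.01 for all genes tested.

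In Kupffer cells edgeR called 0 of the 10 genes and 0 of all 13867 tested (0%), while 1 of the 10 and 706 of all (5.09%) had an unadjusted p under 0.05, and DESeq2 called 75 genes in all. Il1rn was the 1 gene, with 407 and 167 CPM in WT and 786 and 894 CPM under the KO label. Its log2 fold change was 1.45 (SE 0.51, adjusted p = 0.933) and stayed between 0.89 and 2.39 with each library left out. Il1rn was also the 1 gene of 10 without overlap between labels (37.3% of all genes). Il1b and Il6 had log2 fold changes of -0.83 (SE 0.52) and -1.13 (SE 0.60), which rested on WT library 31: without it they were 0.04 and 0.15. Il10, Tnfaip3 and Il1a had 0.35, 0.34 and 0.15, and Nfkbia, Nfkbiz, Il18 and Tnf had -0.43, -0.20, -0.06 and -0.0014. The 12 immediate early genes, which respond within minutes to stress, summed to 20764 to 27247 CPM in the WT and 5532 to 11144 CPM in the KO-labelled Kupffer libraries, and their part in these values was not tested.

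In HSCs edgeR called 0 of the 10 genes and 0 of all 14390 tested (0%), with 1 of the 10 and 1259 of all (8.75%) at an unadjusted p under 0.05 and 401 called by DESeq2. Tnfaip3 was again the gene, with a log2 fold change of -3.21 (SE 1.19, adjusted p = 0.539), and the 1 gene of 10 without overlap (40.5% of all genes). The value rested on WT library 32, with 449.7 CPM, and without it the log2 fold change was -0.91. The other 9 genes had between -1.36 (Il1rn) and 0.38 (Il1b), with SEs from 0.48 (Nfkbiz) to 1.96 (Il10).

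In hepatocytes edgeR called 0 of the 10 genes and 0 of all 11548 tested (0%), with 2 of the 10 and 821 of all (7.11%) at an unadjusted p under 0.05 and 31 called by DESeq2. The 2 were Tnf (log2 fold change -1.45, SE 0.46, adjusted p = 0.700) and Tnfaip3 (-1.43, SE 0.48, adjusted p = 0.700). Labels did not overlap in 6 of the 10 genes in CPM with TMM factors, where 40.8% of all genes tested did not overlap. These were lower for Il1a, Il6, Tnf and Tnfaip3 and higher for Il18 and Nfkbia. Without the factors Nfkbia overlapped (127 and 98.9 CPM in WT against 126 and 215 CPM). Kupffer cell markers were also lower under the KO label in these libraries, with 0.269% to 0.391% against 0.416% to 0.781% in WT. Over the 4 hepatocyte libraries, the percentage of the Kupffer level divided by that of the markers was 0.4001 to 1.20 for Il6, 0.717 to 1.25 for Il1b, 0.735 to 2.81 for Tnf, 1.62 to 2.01 for Il1a, 2.64 to 4.80 for Tnfaip3, 3.61 to 17.7 for Nfkbia and 35.0 to 150.3 for Il18. Il18 and Nfkbia had log2 fold changes of 0.63 and 0.68 (SE 0.33 each). The part of Kupffer RNA in these differences was not tested.

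**Figure D4:**
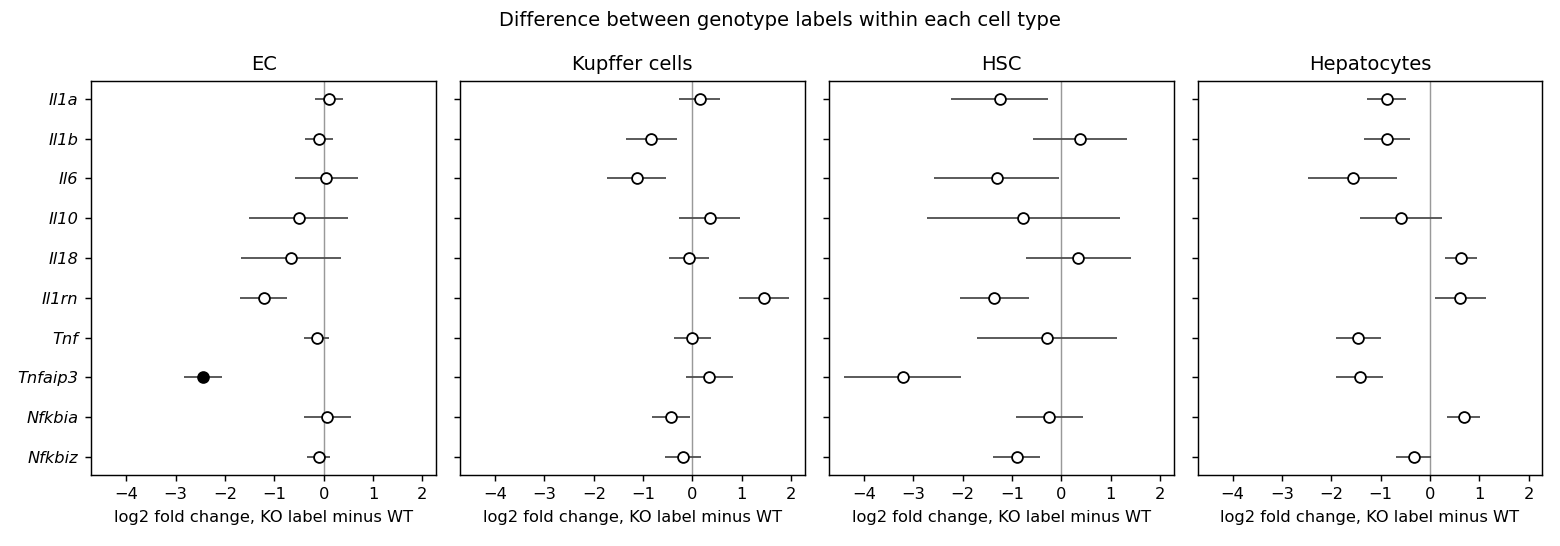
Log2 fold change of the KO-labelled against the WT libraries for the 10 genes in each cell type (edgeR), with bars of 1 SE (2 libraries against 2). The filled point passed an adjusted p-value under 0.05, and open points did not. Tnfaip3 lies left of zero in ECs (-2.45), HSCs (-3.21) and hepatocytes (-1.43) and right of it in Kupffer cells (0.34), and Il1rn is at -1.22 in ECs and 1.45 in Kupffer cells.

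The difference of the label effect between cell types was tested over the 16 libraries, and edgeR called 0 of the 10 genes in each of the 6 pairs (background 2.07% for ECs against Kupffer cells, 0.0349% for ECs against HSCs, 0.0697% for ECs against hepatocytes, 0.593% for Kupffer cells against HSCs, 0.0116% for Kupffer cells against hepatocytes and 0.0755% for HSCs against hepatocytes). At an unadjusted p under 0.05 were Il1rn and Tnfaip3, in 2 pairs each, and the share of all genes at that p is not given here. Il1rn differed by -2.67 on the log2 scale between ECs and Kupffer cells (SE 0.94, unadjusted p = 0.0151, adjusted p = 0.218) and by 2.81 between Kupffer cells and HSCs (SE 0.94, adjusted p = 0.236). Tnfaip3 differed by -2.83 (SE 1.26, adjusted p = 0.340) and 3.59 (SE 1.27, adjusted p = 0.276) in the same pairs. DESeq2 also called 0 of the 10 genes in each pair, while edgeR without the filter on low counts called Il1rn and Tnfaip3 in both of these pairs. The share of all genes called without the filter is not given here either.

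The rest of the pathway was described through 7 lists. They cover receptors and decoys, NF-kB subunits, other IkB members, and signal transducers and IKK kinases. The remaining lists are other feedback inhibitors, processing genes with the inflammasome, and immediate early genes. The list of other feedback inhibitors also holds Ptgs2, the gene of the inducible cyclooxygenase, which is an enzyme rather than an inhibitor. Of the 10 processing genes, 6 were lower and 0 higher in ECs than in Kupffer cells past the threshold, with a median log2 fold change of -2.30. Of all genes tested 8.05% were called lower there, and 17.3% in either direction. Against HSCs, 7 of 10 were called higher in Kupffer cells (background 9.47%). Nlrp3, the sensor of the inflammasome, differed by -5.74 and Casp1, the protease that matures IL-1 beta and IL-18, by -2.09 between ECs and Kupffer cells. Il18bp, which encodes a decoy that binds IL-18, differed by -5.58.

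In the comparison of ECs with Kupffer cells 2 of 12 receptors and decoys were called higher and 5 lower in ECs (background 17.3% in either direction, and 8.05% lower). Il1r1, the signalling receptor for both IL-1 forms, had 32.2 and 21.4 CPM in WT ECs, 114 and 58.7 CPM in WT HSCs and 3.35 and 0.979 CPM in WT Kupffer cells. Il6st, the shared signalling chain of the IL-6 family, had 1232 and 710.0 CPM in WT ECs against 25.1 and 85.4 CPM in WT Kupffer cells, whereas Il6ra, the IL-6 binding chain, had 7.40 and 36.5 against 266 and 291 CPM. Both differences of Il1r1 and Il6st were called, at 3.21 and 3.84 on the log2 scale, as was that of Il6ra at -4.06. Of the 5 subunits of NF-kB, 0 differed past the threshold between ECs and Kupffer cells (background 17.3%) or between ECs and HSCs (background 10.2%). Compared with hepatocytes, 4 of 5 (Rel, Relb, Nfkb1 and Nfkb2) were called higher in each nonparenchymal cell type (background 20.5% to 23.2% higher).

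Among the other feedback inhibitors, Socs3, an intracellular protein that restrains IL-6 signalling, and Sigirr, a membrane receptor of the IL-1 receptor family that restrains its signalling, were higher in ECs than in Kupffer cells, by 2.80 and 2.78 on the log2 scale. They were the 2 of 14 that passed, where 17.3% of all genes tested passed in either direction. Of the 5 other IkB members, 2 were called lower in ECs than in Kupffer cells (background 8.05%), namely Nfkbid (-2.51) and Nfkbie (-2.86). Among 15 signal transducers and kinases only Irak2, a kinase of the IL-1 receptor complex, differed past the threshold (-1.52), beside 17.3% of all genes tested.

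Between the labels, 1 gene of these lists was called, in ECs, where 2.08% of all genes tested were called. Tnfrsf1b, which encodes TNF receptor 2, had 36.5 and 28.7 CPM in WT ECs and 10.9 and 7.72 CPM under the KO label (log2 fold change -1.82, SE 0.32, adjusted p = 0.0495). The labels did not overlap, and the call was lost without EC library 34, 6 or 46 (adjusted p = 0.0740 to 0.232), with RLE factors (0.0501), with library totals (0.0677) and with hepatocyte-enriched genes left out (0.180). In the same libraries the T and NK cell markers had lower levels under the KO label (median log2 fold change -1.57). So did the B cell markers (-1.63) and the stellate cell markers (-1.35), as given above. Kupffer cell markers had higher levels (0.84), and Kupffer cells had more Tnfrsf1b than ECs. The part of RNA from these cells in the Tnfrsf1b count was not tested. Of the 11 receptors and decoys tested in ECs, 3 were higher and 8 lower, with a median of -0.99.

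In ECs the genes with the smallest p of the other lists did not pass. Rel, the gene of the subunit c-Rel, had 179 and 130.4 CPM in WT against 76.0 and 87.2 CPM (log2 fold change -0.92, adjusted p = 0.167), and Nfkb2 had -0.34. Ptgs2, the inducible cyclooxygenase, had 2.37 and 5.59 CPM in WT and 0.209 and 0 CPM under the KO label, both at or below 3 counts, so that no fold is given. Sigirr, a negative regulator of IL-1 receptors, had 0.71, Il18bp 1.01 (adjusted p = 0.131) and Nlrc4, an inflammasome sensor, had 1.88 and 1.63 CPM in WT and 0.487 and 0 CPM under the KO label. The IkB members Nfkbid and Nfkbil1 had 0.44 and 0.41, the kinases Ripk1 and Irak1 -0.65 and -0.60, and the immediate early genes Jund and Klf2 -0.99 and -0.89.

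In Kupffer cells the 14 genes named here from the lists had an adjusted p of 0.933 each. All 5 NF-kB subunits had positive log2 fold changes, from 0.64 to 0.99, with Rel at 0.85 (187 and 232 CPM in WT, 365 and 411 CPM under the KO label) and Nfkb1 at 0.99. Il1r2, the decoy receptor for IL-1, had 3.96 and 0.913 CPM in WT against 28.9 and 16.5 CPM (3.10), and Il18rap had 2.43. Bcl3 had 1.22, Nfkbib 0.79, Irak2 1.05, Irak4 -0.63, Casp4 0.94 and Adam17 0.82. Negative values were found for Dusp1, a phosphatase gene of MAP kinases (-1.64), Zfp36, whose product destabilises cytokine mRNAs (-1.44), and the immediate early genes Ier2 (-2.23) and Fos (-3.04). Of the 12 immediate early genes 10 had negative values, 8 of them at an unadjusted p under 0.05.

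In HSCs all 5 NF-kB subunits had negative log2 fold changes, with Rel at -1.54 (adjusted p = 0.430) and Relb at -0.97. Il1rap, the accessory chain of the IL-1 receptor, had -1.15 (adjusted p = 0.353), Il10ra -0.75, Ikbkg -0.95, Tab3 -1.69, Ptgs2 -3.01, Cyld -0.86, Adam17 -0.90, Casp4 -0.99, Nfkbil1 0.81, Nfkbie -0.72, Jund 0.68 and Atf3 -0.82, and none passed. Negative values were found for 13 of the 14 genes tested of the feedback inhibitor list, Ptgs2 among them. The same held for 14 of the 15 signal transducers and kinases, beside a median of 0.02 over all genes tested. In hepatocytes the values were -2.01 for Il10ra, 0.50 for Il6ra, 0.10 for Rela, -0.17 for Relb, -0.89 for Nfkbie, -1.37 for Nfkbid, -0.76 for Chuk, -0.85 for Ikbkg, -0.95 for Socs3, -0.92 for Zfp36, 0.57 for Il18bp, -1.62 for Nlrp3, -2.28 for Klf2 and -0.96 for Fos, and none passed.

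**Figure D5:**
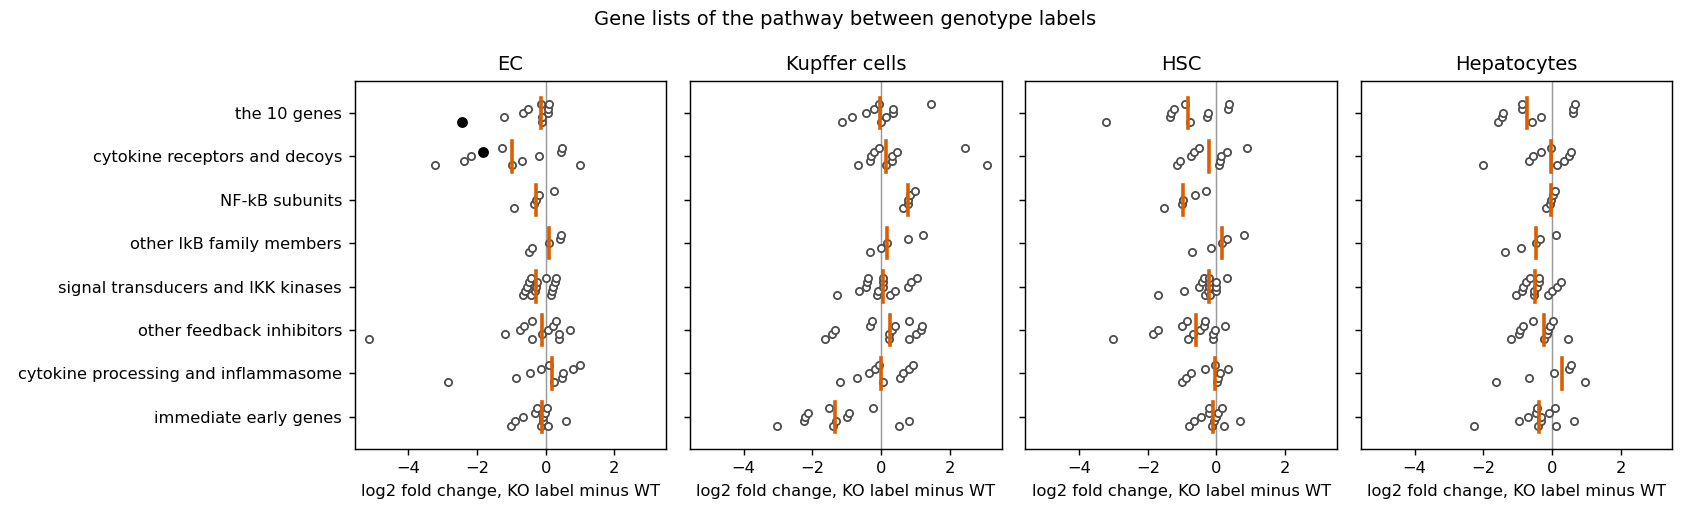
Log2 fold change of the KO-labelled against the WT libraries for the 10 genes and the 7 lists in each cell type (edgeR). Each point is a gene, filled where the adjusted p-value was under 0.05, the orange bar is the median of the list, and vertical offsets only separate points. The filled points are Tnfaip3 and Tnfrsf1b in ECs, and the immediate early genes of Kupffer cells have a median of -1.35.

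Genes with the most similar pattern over the 16 libraries were found among 11217 genes whose mean reached 10 CPM in 1 group, by the root mean square difference of centred log2 CPM, where 0 is the same pattern. Il1b was nearest to the macrophage genes Tyrobp (0.34), Pirb (0.36) and Pld4 (0.37). Il1a was nearest to the scavenger receptor gene Msr1 (0.41), then to Nrros (0.51) and Pla2g7 (0.60). Il6 lay near Treml4 (0.55), Tyrobp (0.59) and Lyz2 (0.61), Il18 near Plbd1 (0.53), Ctsh (0.54) and Acp5 (0.61), and Nfkbia near Ptpn1 (0.46), Arpc1b (0.47) and Mcl1 (0.48). Nfkbiz was nearest to Map3k8 (0.50), Atp10d (0.52) and Vasp (0.54). The others had no close neighbour: Tnf and Ebi3 differed by 0.72, Il10 and Mmp27 by 0.85, Il1rn and F830208F22Rik by 0.88, and Tnfaip3 and Rel by 0.93. These libraries share 4 cell types, so that the measure mostly compares cell types.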

How the data were processed

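RNA-seq of 4 liver cell types was available in 16 libraries. The authors deposited, for each library, raw read counts per gene and the submitters' processing notes name Trimmomatic 0.32, HISAT2 2.1.0, HTSeq 0.9.1 and the build GRCm38. The annotation release, the strand setting and a library protocol free of contradiction (the labels name both a stranded kit and Smart-seq2) were not given in the sources used here. The 5 counter summary lines of each file (42.5% to 57.5% of reads) were left out of all totals, and 47729 gene rows remained. Of their IDs, 98.9% were found in GENCODE M21, which gave positions and exon lengths. Promoters came from RefSeq (GRCm38.p6).

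CPM was computed over gene rows. Genes without overlap between labels were counted on CPM with TMM factors within each cell type. Differences were tested with edgeR 4.0.16 (quasi-likelihood, filterByExpr, TMM) in R 4.3.3, KO against WT label within each cell type, WT cell types against each other in one fit, and differences between label effects over all 16 libraries. P-values were adjusted by Benjamini-Hochberg over all genes tested, with a threshold of 0.05. Alternatives were DESeq2 1.42.0, other scalings, no filter, 857 hepatocyte-enriched genes left out (at least 10 CPM in WT hepatocytes and 8 times the WT Kupffer level), all libraries in one fit and each library left out. The fits were also run on simulated counts with a fixed spread, in which libraries of a cell type did not differ in RNA of other cells. That run cannot show how such differences affect the calls here. The labels do not say whether libraries are separate animals, so that p-values measure the spread between these libraries, which may be technical. A permutation test of 2 against 2 cannot go below p = 0.333 and was not used. Groups came from the labels.

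The 10 genes, the lists and the tests were chosen with earlier results of these data known. From each list, called genes are named between labels, or else the 2 with the smallest p, and between cell types counts with examples are given. A few genes were added after their values were seen (examples between cell types, and Marco).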

Additional observations from a re-analysis of the deposited data

Results flagged for a closer look

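The label effect in ECs differed from that in Kupffer cells, by the test of the difference itself over the 16 libraries (edgeR), in 4 genes of the pathway lists and in none of the 10 cytokine and feedback genes. These were 1 of 12 receptors and decoys, 1 of 14 other feedback inhibitors and 2 of 12 immediate early genes. Over all 17214 genes tested, 2.07% were called. Tnfrsf1b, the gene of TNF receptor 2, had 36.5 and 28.7 CPM in WT ECs against 10.9 and 7.72 CPM under the KO label, and 180.4 and 364 against 339 and 344 CPM in Kupffer cells, a difference of -2.16 on the log2 scale (SE 0.42, adjusted p = 0.0290). The phosphatase gene Dusp1 had 4306 and 7693 against 8517 and 7328 CPM in ECs and 6702 and 8702 against 2863 and 2261 CPM in Kupffer cells, a difference of 2.02 (SE 0.44, adjusted p = 0.0373). The immediate early genes Fos and Ier2 differed by 3.60 (SE 0.77, adjusted p = 0.0365) and 2.18 (SE 0.46, adjusted p = 0.0355). Fos had 3896 and 7899 CPM in WT Kupffer cells against 1119 and 355 CPM. The 4 calls were lost with library totals (adjusted p = 0.0521 to 0.0601) and without hepatocyte-enriched genes (0.109 to 0.129), and kept with DESeq2, RLE factors and no filter. All 4 were also lost when any one of the EC libraries, Kupffer library 43 or hepatocyte library 29 or 33 was left out (adjusted p = 0.0538 to 0.199), and some of them without Kupffer library 31 or 39 or hepatocyte library 25 or 41.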

How the results depend on the processing

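No paired analysis was run, because the liver behind each library was not given and each library number occurs in a single group. Neighbouring numbers, such as 29, 31 and 32 in WT hepatocytes, Kupffer cells and HSCs, may mark the same liver, which was not tested. Comparisons between cell types and differences of the label effect treated all libraries as independent. Each group has 2 libraries, so that leaving one out leaves a single library assumed to vary like the others.

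Of the 10 genes, the 1 called in ECs between labels became 0 without hepatocyte-enriched genes, 0 with all 16 libraries in one fit and 0 to 1 with a library left out. Without the filter on low counts 1 was called in Kupffer cells, 2 in HSCs and 1 in hepatocytes. Between cell types the counts were 4 to 8 (ECs and Kupffer cells, 8 in the report), 0 to 1 (ECs and HSCs), 2 to 6 (ECs and hepatocytes), 5 to 9 (Kupffer cells and HSCs), 7 to 9 (Kupffer cells and hepatocytes) and 2 to 7 (HSCs and hepatocytes) with a library left out. Between ECs and HSCs the 0 became 2 with DESeq2, 1 with RLE factors, 1 with library totals, 5 without a filter, 2 without hepatocyte-enriched genes, 2 with all 16 libraries and 1 in the KO-labelled libraries. Between HSCs and hepatocytes the 3 became 5 with DESeq2, 7 with totals and 9 without a filter. For differences of the label effect, no filter gave 2 (ECs and Kupffer cells), 1 (ECs and hepatocytes), 2 (Kupffer cells and HSCs) and 2 (HSCs and hepatocytes) in place of 0, and leaving out a library 0 to 1 for Kupffer cells and HSCs (1 without HSC library 20). Between Kupffer cells and hepatocytes the 9 became 10 with totals and without a filter, where Il18 was called. For comparisons between cell types and differences of the label effect, the share of all genes called under these other settings is not given here. The causes were not tested.

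Over all genes, the 305 calls in ECs became 996 with DESeq2, 190 with totals, 1259 without a filter, 0 without hepatocyte-enriched genes and 3 to 688 with a library left out (688 without WT library 34, 58 without KO-labelled library 6 and 3 without 46). The 0 calls became 75 with DESeq2, 159 without a filter and 0 to 12 with a library left out in Kupffer cells, 401, 663 and, with all 16 libraries, 178 in HSCs, and 31, 227 and 0 to 55 in hepatocytes.

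Directions of uncalled log2 fold changes turned in these cases. In Kupffer cells Il18 was 0.015 with totals, and Tnf 0.00061 with RLE factors, 0.065 with totals and 0.038 without hepatocyte-enriched genes. With a library left out, ranges in ECs were -0.17 to 0.35 (Il1a), -0.45 to 0.22 (Il1b), -0.40 to 0.75 (Il6), -1.23 to 1.02 (Il10), -1.34 to 0.74 (Il18), -0.39 to 0.089 (Tnf), -0.71 to 0.59 (Nfkbia) and -0.25 to 0.078 (Nfkbiz). In Kupffer cells they were -0.31 to 0.82 (Il1a), -1.37 to 0.035 (Il1b), -1.80 to 0.15 (Il6), -0.31 to 1.58 (Il10), -0.48 to 0.52 (Il18), -0.36 to 0.39 (Tnf), -0.17 to 0.96 (Tnfaip3), -0.84 to 0.14 (Nfkbia) and -0.63 to 0.11 (Nfkbiz). In HSCs they were -2.71 to 0.48 (Il1a), -1.43 to 1.70 (Il1b), -3.90 to 0.65 (Il6), -6.10 to 3.83 (Il10), -0.40 to 1.36 (Il18), -5.09 to 0.69 (Tnf), -1.27 to 0.69 (Nfkbia), -1.55 to 0.0070 (Relb), -1.29 to 0.21 (Nfkbie) and -1.68 to 0.35 (Casp4). In hepatocytes they were -1.38 to 0.087 (Il10), -0.30 to 1.18 (Il1rn), -0.74 to 0.085 (Nfkbiz) and -0.50 to 0.29 (Relb). Each group level was also computed without hepatocyte-enriched genes and with TMM factors, and set against the SD of its 2 libraries. The level moved by over 1 SD in 60 of these checks and by less in 100.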
